A study of Homo sapiens with 18 samples.

Results

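The subunit genes that build the membrane sector of the vacuolar proton pump (V-ATPase) were followed in breast cancer cells depleted of RagC, 10 of the 57820 genes in the deposited count table. They were chosen by symbol, as the membrane (V0) sector and its accessory subunits: ATP6V0D2 and ATP6V0D1 (d subunit), ATP6V0A1, ATP6V0A2 and TCIRG1 (a subunit), ATP6V0B and ATP6V0C (proteolipid ring), ATP6V0E1 (e subunit), and ATP6AP1 and ATP6AP2 (accessory subunits). Each symbol matched 1 Ensembl identifier, and all 10 genes passed the filter on low counts. The cells were MDA-MB-231, a human triple-negative breast cancer line grown in L-15 medium with fetal bovine serum. The siRNA conditions had 6 libraries each: a control siRNA (siCtrl, genotype given as WT) and a pair of siRNAs against RagC (siRagC1 and siRagC2, genotype given as RagC knock-down). All 18 libraries came from cells lipofected for 72 h, so the controls also went through transfection. RagC, encoded by RRAGC, is a Rag GTPase that tethers the growth kinase complex mTORC1 to the lysosome, and the study asked which genes change when that tether is silenced.

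The V-ATPase acidifies lysosomes and endosomes. Its cytosolic V1 sector hydrolyses ATP and turns a rotor that passes through the d subunit into the proteolipid ring, and protons move between that ring and the a subunit. ATP6V0D1 is the broadly expressed d subunit, whereas ATP6V0D2 is best known from osteoclasts, kidney and macrophages. The a subunit paralogs direct pumps to different membranes, with TCIRG1 (a3) known for the osteoclast border and for lysosomes.

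Replicates 1 and 2 of each condition carry library codes of a series beginning D1103, and replicates 3 to 6 codes beginning D1221. The labels say nothing else about the code series. The titles number the libraries of a condition as biological replicates 1 to 6, without saying how these were kept apart. Library totals ran from 18953348 to 44261701 counts in siCtrl, 22940834 to 55409996 in siRagC1 and 14829597 to 71622456 in siRagC2. Levels are counts-per-million (CPM) scaled by trimmed mean of M values. Unless stated otherwise, changes are log2 fold changes ± standard error from edgeR's quasi-likelihood test, with the code series as a term and p-values adjusted by Benjamini-Hochberg over 15307 genes; 0.05 was the threshold. The targeted gene, RRAGC, had 60.6 to 67.9 CPM in siCtrl, 12.3 to 31.9 in siRagC1 and 19.3 to 40.8 in siRagC2, with no overlap between controls and either siRNA. All 8 markers fixed for a mesenchymal breast cancer line, VIM and CD44 among them, averaged above 1 CPM over the 18 libraries, as did ERBB2, EPCAM, GATA3 and CDH1 of 6 luminal or epithelial markers, while the receptors ESR1 and PGR averaged below it.

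ATP6V0D2 rose with both siRNAs, 2.58-fold with siRagC1 and 1.83-fold with siRagC2. Its paralog ATP6V0D1 stayed within 0.04 log2 units of the controls on average. ATP6V0A2 fell slightly with siRagC2, and no other subunit passed the threshold with either siRNA. Of the 10 genes, 1 was called higher and 0 lower with siRagC1, where 1.41% of all tested genes were called higher and 0.627% lower. With siRagC2, 1 was called higher and 1 lower, against 1.87% and 1.36% of all tested genes. The median log2 change of the 9 subunits other than ATP6V0D2 was 0.05 with siRagC1 and 0.04 with siRagC2, where the median of all tested genes was 0.01 and 0.00. Both comparisons use the same control libraries.

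**Figure D1:**
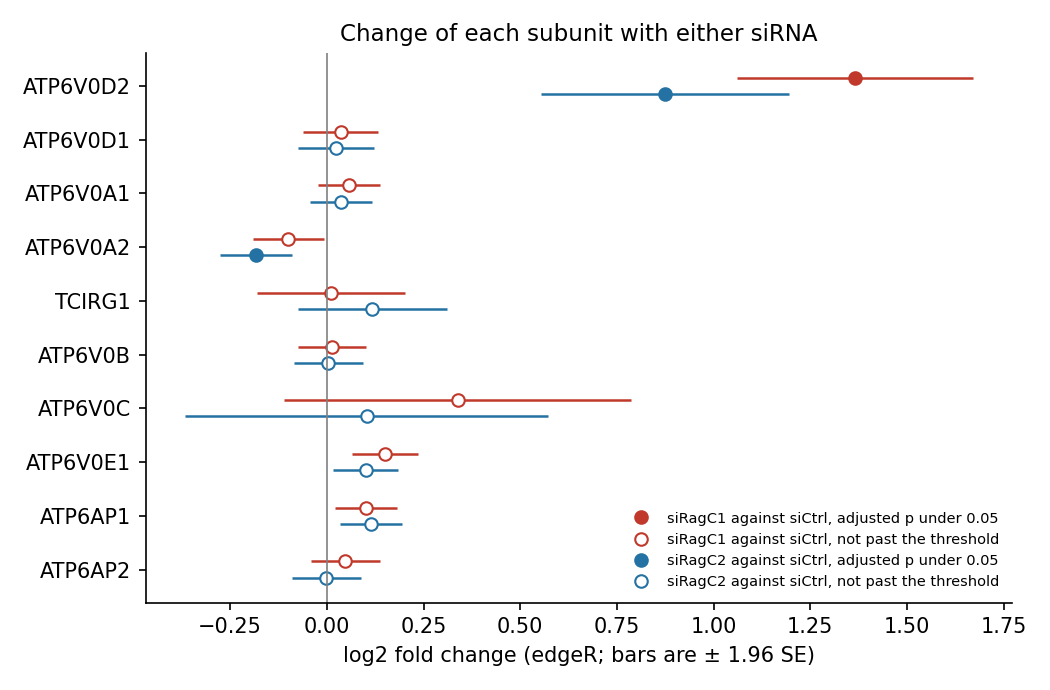
Log2 fold change of each subunit gene (horizontal axis) with siRagC1 (red) and siRagC2 (blue) against siCtrl, 6 libraries per group; bars are 95% intervals, and filled circles passed an adjusted p of 0.05. ATP6V0D2 stands apart at 1.36 and 0.87, ATP6V0A2 with siRagC2 is the other filled circle at -0.18, and ATP6V0C has the widest bars.

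In replicates 1 to 6 of siCtrl, ATP6V0D2 (ENSG00000147614) had 4.14, 3.12, 1.87, 2.45, 1.89 and 1.71 CPM. The siRagC1 libraries had 10.98, 10.7, 4.27, 6.35, 4.38 and 3.604 CPM in the same order. The siRagC2 libraries had 5.37, 5.68, 3.50, 4.49, 3.96 and 4.57 CPM. Replicates 1 and 2 were the highest of every condition, so the ranges over all libraries overlapped, but within each code series every library of either siRNA lay above every control. Non-overlap of this kind in both code series, in the higher direction, was found for 1.40% of tested genes with siRagC1 and 1.90% with siRagC2.

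The mean level of ATP6V0D2 was 2.53 ± 0.946 CPM in siCtrl, 6.71 ± 3.32 in siRagC1 and 4.59 ± 0.823 in siRagC2 (SD, n = 6 each). These levels rested on 33 to 133 counts per control library, 101 to 451 with siRagC1 and 59 to 253 with siRagC2. With siRagC1 the log2 change was 1.36 ± 0.16 (edgeR, adjusted p = 0.000129). With siRagC2 it was 0.87 ± 0.16 (edgeR, adjusted p = 0.00631). The gene was higher than the same-numbered control in 6 of 6 libraries with each siRNA. The share of all tested genes for which this held was not computed. ATP6V0D2 ranked 3rd by fold among the 216 genes called higher with siRagC1 and 18th among the 287 with siRagC2. In bulk RNA, more cells expressing a gene and more RNA per cell cannot be told apart.

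The call on ATP6V0D2 depended on accounting for the code series. Leaving that term out kept the changes at 1.37 and 0.82 but gave adjusted p = 0.0869 and 0.279 in edgeR. In the 4 D1221 replicates alone the changes were 1.205 ± 0.19 and 1.03 ± 0.19 (edgeR, adjusted p = 0.0661 and 0.128). In the 2 D1103 replicates alone they were 1.60 ± 0.15 and 0.63 ± 0.16 (edgeR, adjusted p = 7.01e-06 and 0.0194).

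**Figure D2:**
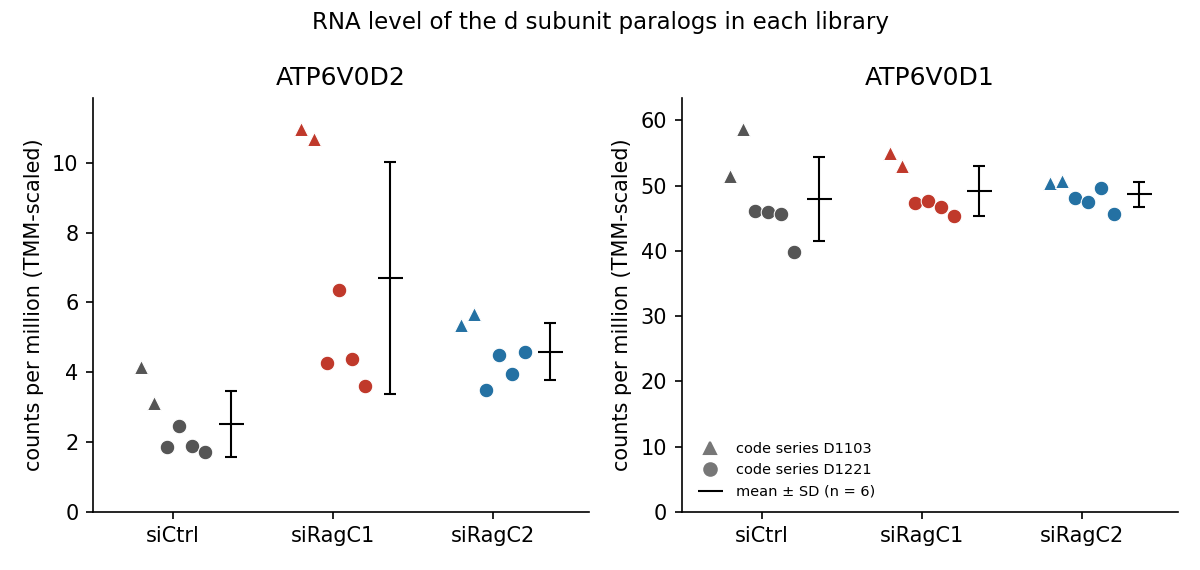
Level of ATP6V0D2 (left) and ATP6V0D1 (right) in CPM, 1 symbol per library, with triangles for code series D1103, circles for D1221, and the mean ± SD of 6 libraries beside each group. ATP6V0D2 had means of 2.53, 6.71 and 4.59 CPM in siCtrl, siRagC1 and siRagC2, while ATP6V0D1 had 48.0, 49.1 and 48.7 CPM.

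The response of ATP6V0D2 to the siRNAs was compared directly. The level with siRagC1 was above that with siRagC2 by 0.49 ± 0.14 on the log2 scale (95% interval 0.21 to 0.77), which did not pass the threshold (edgeR, adjusted p = 0.370; 5 of 6 same-numbered libraries higher). No gene was called between the siRNAs in edgeR (0% of tested genes), while 1187 had an unadjusted p under 0.05. DESeq2 called 25 genes and limma-voom 0. In D1103 the difference was 0.97 ± 0.14 (edgeR, adjusted p = 0.000874), with 10.98 and 10.7 CPM in siRagC1 against 5.37 and 5.68 in siRagC2. In D1221 it was 0.17 ± 0.16 (edgeR, adjusted p = 1.00), and the siRNA groups overlapped. Leaving out replicate 6 of all 3 conditions gave 0.64 and an adjusted p of 0.00892 in edgeR.

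Whether the code series differed in these responses was tested with interaction terms. For ATP6V0D2 the siRagC1 change was smaller in D1221 than in D1103 by -0.39 ± 0.27 (edgeR, adjusted p = 1.00), and the siRagC2 change was larger by 0.40 ± 0.28 (edgeR, adjusted p = 0.752). No gene was called for either interaction (0% of tested genes each; 310 and 1019 genes at unadjusted p under 0.05, and 0 calls by DESeq2 or limma-voom). The siRagC1 to siRagC2 difference itself changed by -0.79 ± 0.25 between the code series, a test chosen after the data were seen (edgeR, unadjusted p = 0.00489, adjusted p = 0.998). That interaction also gave 0 calls, with 586 genes at unadjusted p under 0.05.

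Remaining RRAGC differed between libraries as well. Set against the control that bears the same number, RRAGC was at 27.7% and 20.2% in the D1103 libraries of siRagC1, and ATP6V0D2 was at 2.65 and 3.42 times. With siRagC2 in D1103, RRAGC was at 28.5% and 35.4% and ATP6V0D2 at 1.30 and 1.82 times. In D1221, RRAGC was at 38.5% to 52.2% with siRagC1 and 35.8% to 65.6% with siRagC2, and ATP6V0D2 at 2.11 to 2.595 times and 1.83 to 2.67 times. The lowest RRAGC, in replicate 2 of siRagC1, went with the highest ATP6V0D2 fold, while the lowest ATP6V0D2 fold was in replicate 1 of siRagC2. Over the 18 libraries, with code series means removed, RRAGC and ATP6V0D2 had a Pearson r of -0.875, into which the differences between conditions enter. For RRAGC itself the change was less negative in D1221 by 0.92 ± 0.26 with siRagC1 and 0.70 ± 0.26 with siRagC2 (edgeR, adjusted p = 1.00 and 0.735), and without a filter on low counts both interactions passed (0.93 and 0.71; edgeR, adjusted p = 8.3e-08 and 0.000424). The part of remaining RRAGC in the level of ATP6V0D2 was not tested.

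**Figure D3:**
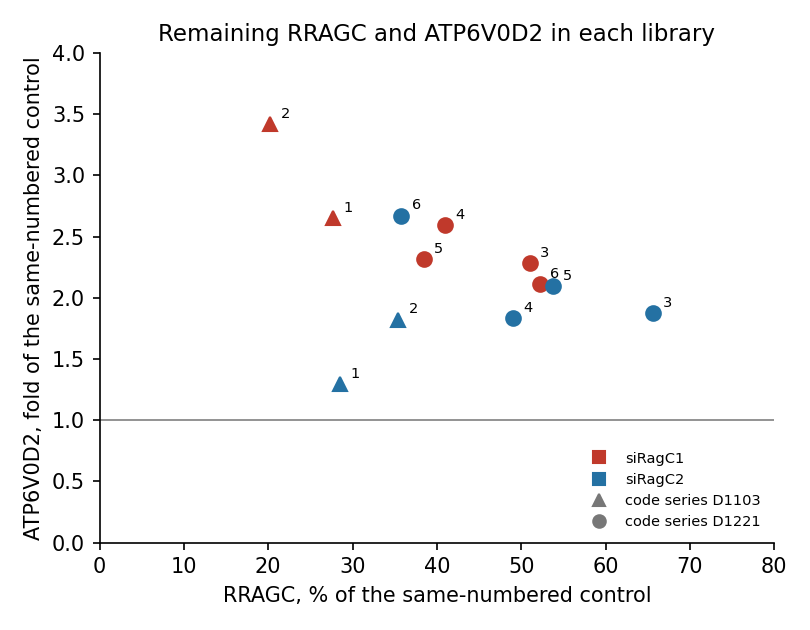
ATP6V0D2 as a fold of the same-numbered control library (vertical axis) against RRAGC as a percentage of the same control (horizontal axis); numbers are replicates, colours the siRNA, shapes the code series. All 12 points lie above 1, from 1.30 to 3.42, with RRAGC between 20.2% and 65.6% of control.

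ATP6V0D1 (ENSG00000159720), the broadly expressed d subunit, showed no change past the threshold. Its lowest, median and highest levels were 39.8, 46.0 and 58.7 CPM in siCtrl, 45.4, 47.4 and 54.9 in siRagC1, and 45.7, 48.8 and 50.8 in siRagC2. Over all libraries the ranges of both siRNAs lay within that of siCtrl. The log2 change was 0.04 ± 0.05 with siRagC1 (95% interval -0.06 to 0.13; edgeR, adjusted p = 0.771) and 0.02 ± 0.05 with siRagC2 (-0.07 to 0.12; edgeR, adjusted p = 0.861). These intervals leave out changes of the size seen for ATP6V0D2. By code series the siRagC2 change in ATP6V0D1 was -0.13 ± 0.07 in D1103 and 0.10 ± 0.06 in D1221 (edgeR, adjusted p = 0.361 and 0.604). The interaction was 0.23 ± 0.10 (95% interval 0.04 to 0.42, edgeR, adjusted p = 0.735), so the average with siRagC2 joins changes of opposite sign.

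Counting ATP6V0D2 per 100 counts of ATP6V0D1 in the same library removes any scaling between libraries. The lowest, median and highest values were 4.05, 4.80 and 8.04 in siCtrl, 7.95, 11.4 and 20.1 in siRagC1, and 7.28, 9.73 and 11.2 in siRagC2. Only replicate 1 of siCtrl, at 8.04, reached into the range of either siRNA. The mean log2 ratio was 1.29 higher with siRagC1 and 0.88 higher with siRagC2. Each difference had a two-sided exact permutation p of 0.00476 within code series, the smallest that the 420 arrangements can give (adjusted p = 0.00714 over 3 ratio comparisons; 6 of 6 same-numbered libraries higher). Between the siRNAs the log2 ratio differed by 0.41 (exact permutation p = 0.0857, adjusted p = 0.0857; 5 of 6 higher), and by 0.49 without replicate 6 of siRagC1 (exact permutation, adjusted p = 0.0476). The pair was chosen with the change in ATP6V0D2 known.

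On a scale that allows genes to be compared, CPM per kb of the principal transcript, ATP6V0D1 was 29.02 ± 6.66 times ATP6V0D2 in siCtrl, 12.3 ± 4.67 times in siRagC1 and 15.5 ± 2.68 times in siRagC2 (SD, n = 6 each). ATP6V0D2 made up 3.51% ± 0.972 of the d subunit RNA in siCtrl, 8.44% ± 3.21 in siRagC1 and 6.20% ± 0.942 in siRagC2. With the length of all annotated exons in place of the principal transcript, an alternative added after the data were seen, these shares were 12.3%, 25.9% and 20.4%. Under either length ATP6V0D1 gave most of the d subunit RNA in all 3 conditions.

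RefSeq promoter windows, from 250 bases before to 50 bases after the start site on GRCh38.p14, were matched to 8 of the 10 genes, all but ATP6V0D2 and ATP6V0E1. Those of ATP6V0D1 and of the ring gene ATP6V0B are shown because they hold a motif that the MiT/TFE factors, which drive many lysosomal genes, can read. TCACGTG or its reverse complement CACGTGA was searched on both strands and was in the windows of ATP6V0D1 and ATP6V0B and in none of the other 6 genes. It was in 3.71% of 35116 RefSeq windows of 300 bases. The ATP6V0D1 stretch is chr16:67481184-67481243 on the minus strand, where both forms overlap in the palindrome TCACGTGA, which 0.98% of windows held; the ATP6V0B stretch is chr1:43974884-43974943 on the plus strand, with a pair of copies. Capitals mark TCACGTG or CACGTGA.
ATP6V0D1: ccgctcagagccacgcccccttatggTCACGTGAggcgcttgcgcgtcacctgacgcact
ATP6V0B: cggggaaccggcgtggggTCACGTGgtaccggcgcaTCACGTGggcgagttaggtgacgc

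These matches are letters in a window, with no binding measured. Neither gene passed the threshold with either siRNA. ATP6V0B (ENSG00000117410) had a median of 84.4 CPM in siCtrl, 85.6 in siRagC1 and 83.5 in siRagC2, and log2 changes of 0.01 ± 0.05 and 0.00 ± 0.05 (edgeR, adjusted p = 0.919 and 0.980).

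Per length, the subunits fell into an order in the control cells. ATP6V0E1 was at 72.6 ± 3.98 CPM per kb, ATP6V0B at 64.7 ± 4.85, ATP6AP1 at 60.6 ± 4.98 and TCIRG1 at 54.9 ± 11.5 (SD, n = 6 each), and neighbours among these overlapped in range. ATP6AP2 at 33.4 ± 3.93 and ATP6V0D1 at 27.9 ± 3.76 lay below all of them and overlapped each other. ATP6V0A1 at 19.5 ± 1.17, ATP6V0A2 at 7.68 ± 0.515, ATP6V0D2 at 1.03 ± 0.387 and ATP6V0C at 0.345 ± 0.0531 followed, each without overlap with the one above. The place of ATP6V0C is uncertain, as it rested on 7 to 22 counts per control library. AC093525.1 and AC093525.2 are annotated over it on the same strand, and the part of that overlap in its low level was not tested. ATP6V0D2 was the most variable of the 10 among the controls, with a coefficient of variation of 37.4%, followed by TCIRG1 at 20.9%.

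**Figure D4:**
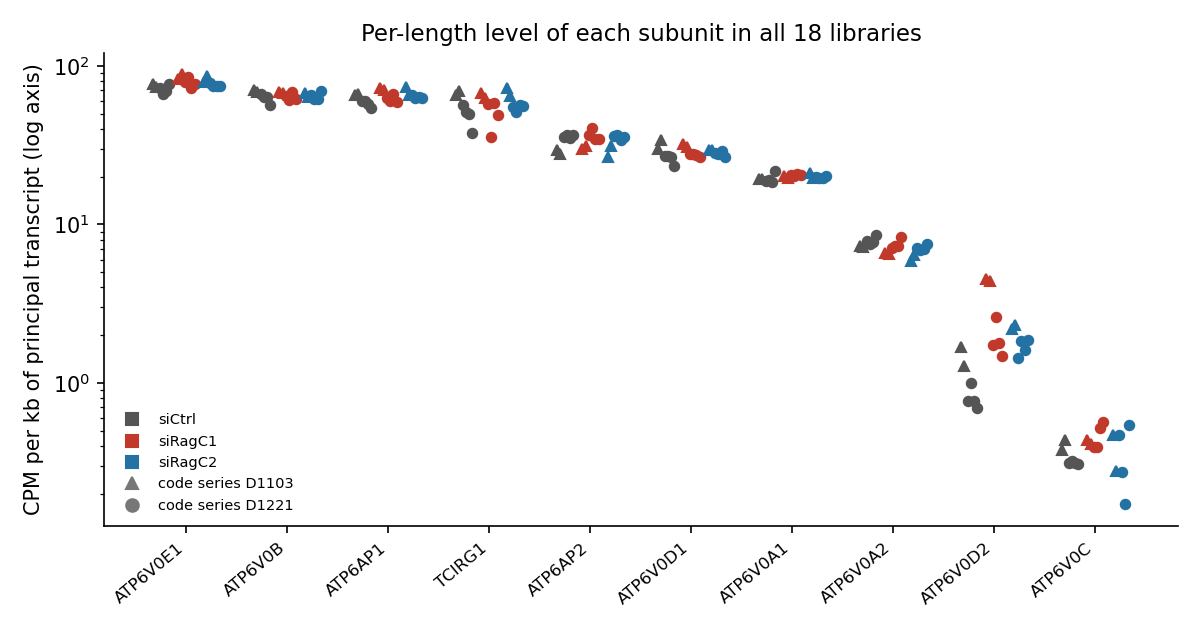
Level of each subunit in CPM per kb of principal transcript on a log axis, 1 symbol per library, ordered by the siCtrl mean; colours are the siRNA and shapes the code series. The levels span from 72.6 for ATP6V0E1 to 0.345 for ATP6V0C in siCtrl. The place of ATP6V0C is uncertain, as it rested on 7 to 22 counts per siCtrl library. ATP6V0D2 is the gene whose libraries of both siRNAs lie above its controls within each code series. Over all libraries its groups overlap.

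Among the a subunit genes, which carry the proton path and set the pump's location, ATP6V0A2 (ENSG00000185344; a2, known from the Golgi) was the one that passed the threshold. Replicates 1 to 6 had 47.6, 46.7, 51.2, 48.9, 51.0 and 56.1 CPM in siCtrl. They had 43.0, 42.5, 46.2, 48.0, 47.6 and 54.1 CPM in siRagC1, and 38.1, 42.1, 46.6, 44.7, 45.4 and 48.9 in siRagC2. Each library of either siRNA was below its same-numbered control, 6 of 6. The share of all tested genes with such a pattern was not computed. With siRagC2 no library overlapped the controls of its code series, as for 1.92% of tested genes in the lower direction, while siRagC1 overlapped them in D1221; for siRagC1, 1.00% of tested genes were lower without overlap in both.

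ATP6V0A2 fell by 0.18 on the log2 scale with siRagC2 (SE 0.05; edgeR, adjusted p = 0.0334). With siRagC1 the change was -0.10 ± 0.05 (edgeR, adjusted p = 0.276), and the difference between the siRNAs was 0.08 ± 0.05 (edgeR, adjusted p = 0.708). The siRagC2 call was lost under 19 of 31 alternatives, over which the change ran from -0.23 to -0.16. Among single libraries it was lost without replicate 1, 2 or 6 of siCtrl or replicate 1, 3, 4 or 5 of siRagC2, where adjusted p in edgeR ran from 0.0520 to 0.109.

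TCIRG1 (ENSG00000110719) had the most RNA per length of the a subunit genes. Its lowest, median and highest levels were 101, 144 and 185 CPM in siCtrl, 95.2, 154 and 181 in siRagC1, and 137, 150 and 194 in siRagC2. The spread within each group was wide, with replicate 6 of siCtrl and replicate 4 of siRagC1 lowest, and the groups overlapped in both code series. The log2 changes were 0.01 ± 0.10 and 0.12 ± 0.10 (edgeR, adjusted p = 0.973 and 0.591). AP002807.1, a non-coding gene annotated over TCIRG1, had 187 to 967 counts per library, and reads shared by overlapping genes may have been split or dropped.

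ATP6V0A1 (ENSG00000033627; a1) had medians of 58.2, 61.5 and 60.1 CPM and log2 changes of 0.06 ± 0.04 and 0.04 ± 0.04 (edgeR, adjusted p = 0.499 and 0.704). Of the a subunit RNA per length, counting ATP6V0A4 too, TCIRG1 gave 65.9% ± 6.07 in siCtrl, 65.7% ± 5.75 in siRagC1 and 68.3% ± 2.99 in siRagC2 (SD, n = 6). ATP6V0A1 gave 24.01%, 24.8% and 23.2%, and ATP6V0A2 9.49%, 8.83% and 7.91%. ATP6V0A4, the kidney and inner ear paralog, stayed under 1% in every library. These shares differed between conditions by less than their spread over libraries for TCIRG1 and ATP6V0A1.

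**Figure D5:**
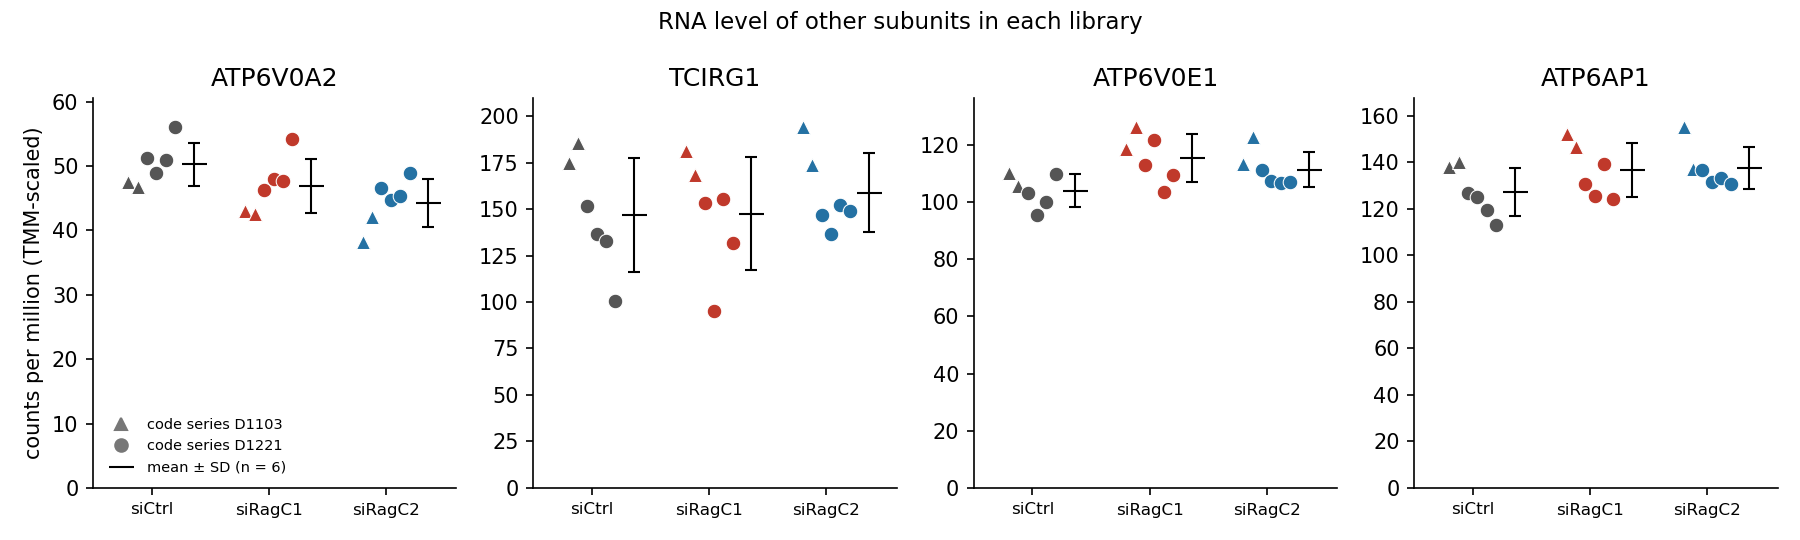
Levels in CPM of ATP6V0A2, TCIRG1, ATP6V0E1 and ATP6AP1, 1 symbol per library, with triangles for code series D1103, circles for D1221 and the mean ± SD of 6 libraries beside each group. The means of ATP6V0A2 step from 50.3 to 46.9 and 44.3 CPM, and the other panels show groups that overlap.

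ATP6V0E1 (ENSG00000113732), the small membrane e subunit, had lowest, median and highest levels of 95.4, 104 and 110 CPM in siCtrl, 104, 116 and 126 in siRagC1, and 107, 109 and 123 in siRagC2. In D1103, with 2 libraries per group, both siRNA groups lay above the controls, as they did for ATP6V0D2 and ATP6V0A1. For siRagC1 this was also so for ATP6AP1 and ATP6AP2. The share of all tested genes that separated in D1103 alone was not computed. In D1221 the ATP6V0E1 groups overlapped. The log2 change of ATP6V0E1 was 0.15 ± 0.04 with siRagC1 (edgeR, adjusted p = 0.0701, 5 of 6 same-numbered libraries higher) and 0.10 ± 0.04 with siRagC2 (edgeR, adjusted p = 0.215). It passed with siRagC1 in DESeq2 (adjusted p = 0.0206) and in edgeR with a replicate block (adjusted p = 0.0447). It also passed in edgeR without replicate 6 of siCtrl (adjusted p = 0.0245) or of siRagC1 (adjusted p = 0.0460).

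The accessory subunits help assemble the pump, and ATP6AP2 is also known as the prorenin receptor. ATP6AP1 (ENSG00000071553) had lowest, median and highest levels of 113, 126 and 140 CPM in siCtrl, 124, 135 and 152 in siRagC1, and 131, 135 and 155 in siRagC2. Its log2 changes were 0.10 ± 0.04 and 0.11 ± 0.04 (edgeR, adjusted p = 0.196 and 0.130). The 95% intervals were 0.02 to 0.18 and 0.03 to 0.19. ATP6AP1 was higher than the same-numbered control in 6 of 6 libraries with siRagC1 and 5 of 6 with siRagC2. For ATP6AP2 (ENSG00000182220) the medians were 82.4, 80.5 and 81.5 CPM, and the log2 changes 0.05 ± 0.05 and -0.00 ± 0.05 (edgeR, adjusted p = 0.651 and 0.993). The 95% interval of the siRagC2 change in ATP6AP2 was -0.09 to 0.09.

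ATP6V0C (ENSG00000185883), the main proteolipid of the ring, had only 3 to 40 counts per library and is uncertain. Its medians were 0.372, 0.496 and 0.440 CPM, and the log2 changes 0.34 ± 0.23 and 0.10 ± 0.24 (edgeR, adjusted p = 0.480 and 0.875). The siRagC1 interval was wide, from -0.11 to 0.79, and differences within it were not detectable at this depth. The protein-coding genes AC093525.1 and AC093525.2 are annotated over ATP6V0C on the same strand and had 0 counts in all 18 libraries; the part of that overlap in the low count was not tested. The annotated pseudogenes of ATP6V0C and ATP6V0E1 in the table held 4 counts in all, and the 4 genes annotated over ATP6V0D2, PSKH2 among them, held 0.

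Some subunits differed between the code series. ATP6V0D1 was at 50.4 to 58.7 CPM in the 6 D1103 libraries and 39.8 to 49.6 in the 12 D1221 libraries. TCIRG1 was at 168 to 194 CPM in D1103 and 95.2 to 155 in D1221. ATP6AP2 went the other way, with 62.2 to 72.5 CPM in D1103 and 79.9 to 94.3 in D1221. None of these ranges overlapped between the code series. The share of all tested genes that separated in this way was not computed. Control ATP6V0D2 averaged 3.63 CPM in D1103 and 1.98 in D1221.

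The rest of the pump was read from fixed lists. Over all tested genes, 1.41% were called higher and 0.627% lower with siRagC1, and 1.87% and 1.36% with siRagC2. The cytosolic V1 sector, which hydrolyses ATP, had 9 of 13 genes tested, and 0 were called with either siRNA; the median log2 change was 0.04 and 0.07. The smallest adjusted p with either siRNA were those of ATP6V1F, with 0.15 ± 0.04 and 0.11 ± 0.04 (edgeR, adjusted p = 0.0505 and 0.113), and ATP6V1E1, with 0.11 ± 0.04 and 0.09 ± 0.04 (edgeR, adjusted p = 0.173 and 0.265). ATP6V1A went the other way, with -0.08 ± 0.05 and -0.11 ± 0.05 (edgeR, adjusted p = 0.390 and 0.203). ATP6V1F passed with siRagC1 in DESeq2 (adjusted p = 0.00938). In edgeR it passed with upper-quartile factors (adjusted p = 0.0380), a filter of 5 CPM in 6 libraries (0.0304) and a replicate block (0.0249). It also passed in edgeR without replicate 6 of siRagC1 (adjusted p = 0.0188) or of all conditions (0.0241). Of 3 other V0 genes 0 were called: ATP6V0E2 changed by -0.08 ± 0.06 and -0.05 ± 0.06, and ATP6V0A4 by 0.08 ± 0.19 and 0.03 ± 0.20. ATP6V0E1 made up 68.5%, 71.8% and 70.7% of the e subunit RNA per length in siCtrl, siRagC1 and siRagC2.

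Of 13 genes for assembly and regulation of the pump, 12 were tested and 0 were called with either siRNA, with a median log2 change of 0.01 with each. CCDC115, an assembly factor, changed by 0.19 ± 0.07 and 0.04 ± 0.07 (edgeR, adjusted p = 0.162 and 0.848), and passed with siRagC1 without replicate 6 of siRagC1 (edgeR, adjusted p = 0.0155). TBC1D24, a TLDc domain protein, changed by -0.17 ± 0.07 and -0.18 ± 0.07 (edgeR, adjusted p = 0.226 and 0.180). 

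Of 12 channels and carriers that balance the charge and ions of the lysosome, all were tested. There were 0 calls for siRagC1 and 3 higher for siRagC2, where 1.41% and 1.87% of all tested genes were called higher. The median log2 change was 0.05 and 0.03. CLCN7, the lysosomal chloride-proton exchanger, had means of 78.8, 94.9 and 97.2 CPM in siCtrl, siRagC1 and siRagC2, and log2 changes of 0.26 ± 0.08 and 0.30 ± 0.08 (edgeR, adjusted p = 0.0746 and 0.0364). TPCN1, a two-pore channel, changed by 0.14 ± 0.05 and 0.18 ± 0.05 (edgeR, adjusted p = 0.157 and 0.0474), and TMEM9, a partner of lysosomal CLC exchangers, by 0.03 ± 0.05 and 0.19 ± 0.05 (edgeR, adjusted p = 0.768 and 0.0331). Between the siRNAs none of these 12 passed. Each of the 3 siRagC2 calls was lost without several single libraries. For CLCN7 these were replicates 1, 2 and 5 of siCtrl and 1, 3, 4 and 5 of siRagC2 (edgeR, adjusted p 0.0610 to 0.112). For TPCN1 they were replicates 1, 2, 5 and 6 of siCtrl and 1, 2, 3, 4 and 6 of siRagC2 (0.0524 to 0.138), and for TMEM9 replicates 1, 2, 5 and 6 of siCtrl and 2, 4, 5 and 6 of siRagC2 (0.0505 to 0.0796). CLCN7 passed with siRagC1 without replicate 3 or 4 of siCtrl or replicate 6 of siRagC1 (edgeR, adjusted p 0.0380 to 0.0487). It also passed in DESeq2 (adjusted p = 0.0332). In edgeR it passed without a filter (adjusted p = 0.000205), with a replicate block (0.0274), in D1103 alone (0.0269) and without replicate 6 of all conditions (0.0244).

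Among MiT/TFE factors and osteoclast regulators, 7 of 8 were tested, with a median log2 change of -0.08 and -0.03. There was 1 call, lower with siRagC1, where 0.627% of all tested genes were called lower. MITF, a factor that drives ATP6V0D2 in osteoclasts, had means of 44.0, 34.7 and 38.7 CPM. The fall in MITF with siRagC1 was 0.35 (SE 0.07, edgeR, adjusted p = 0.0166). The part of MITF in the level of ATP6V0D2 was not tested. With siRagC2 the change in MITF was -0.19 ± 0.07 (edgeR, adjusted p = 0.163). The siRagC1 call on MITF was lost without replicate 1 of siCtrl (edgeR, adjusted p = 0.0519) or replicate 2 of siRagC1 (0.0612). It was also lost without the code series term (0.273), with only the compared groups (0.0525), in D1103 or D1221 alone (0.0999 and 0.603), and without number 1, 2, 3 or 5 of all conditions (0.0589 to 0.0721). TFEB, TFE3, NFATC1, FOSL1, FOS and PPARGC1B were not called with either siRNA.

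Markers of cell types in which ATP6V0D2 is well known were read beside it. Of 8 osteoclast markers 4 averaged above 1 CPM over the 18 libraries, CTSK, CALCR, SIGLEC15 and ITGB3, and the fusion genes OCSTAMP and DCSTAMP were at 0 in all libraries, save 1 count of DCSTAMP in a siRagC1 library. The summed level of the list was 9.41 to 14.6 CPM in siCtrl, 11.2 to 17.01 in siRagC1 and 12.02 to 18.5 in siRagC2. SIGLEC15, a sialic acid receptor of osteoclasts, averaged 0.682, 1.45 and 1.36 CPM, and ACP5, the tartrate-resistant acid phosphatase, 0.346, 0.938 and 0.877. Of the 8 osteoclast markers 5 were tested, and these 2 were called higher with each siRNA (edgeR, adjusted p = 0.0187 and 0.0270 for SIGLEC15, 0.0274 and 0.0358 for ACP5), where 1.41% and 1.87% of all tested genes were. Both rested on few counts. ACP5 had 4 to 12 per siCtrl library, 16 to 70 with siRagC1 and 5 to 52 with siRagC2. SIGLEC15 had 7 to 32, 18 to 84 and 8 to 78 in the same order. Over all libraries the siRagC2 levels of both genes overlapped siCtrl, as did SIGLEC15 with siRagC1. These calls were not recomputed under the alternatives. CTSK changed by -0.10 and -0.01, CALCR by 0.31 and 0.34, and ITGB3 by 0.31 and 0.37 on the log2 scale, and none of these passed (edgeR, adjusted p 0.0818 to 0.985). Of 6 leukocyte markers only CSF1R averaged above 1 CPM, MARCO was at 0 in all libraries, and the summed level was 8.81 to 10.8, 8.83 to 11.3 and 8.32 to 11.4 CPM.

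The genes whose levels moved most like ATP6V0D2 over the 18 libraries, by Pearson correlation of log2 CPM after removing code series means, were found among 12749 genes. They were CCN3, a secreted matricellular protein (r = 0.960), the cathepsins CTSH (0.938) and CTSL (0.937), the ferritin light chain FTL (0.925), LHFPL2 (0.911) and HS1BP3 (0.910). The 18 libraries fall into 3 siRNA conditions, so differences between conditions enter these values. The choice thus favoured genes that move with the siRNAs, and calls on these genes are not a separate result. All 6 were called higher with both siRNAs, where 1.41% and 1.87% of all tested genes were. Their changes were smaller than those of ATP6V0D2: CCN3 by 0.50 and 0.36, CTSH by 0.57 and 0.38, CTSL by 0.29 and 0.22, and FTL by 0.44 and 0.34 on the log2 scale. Among the other subunits, ATP6V0E1 (r = 0.679) and ATP6AP1 (0.606) were most like ATP6V0D2 on this measure, ATP6V0D1 had r = 0.317, and ATP6V0A2 ran opposite (-0.553).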

How the data were processed

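RNA of 18 MDA-MB-231 libraries (500 ng each) was sequenced. Per the submitters' processing notes, STAR 2.7.6a, cutadapt and build GRCh37 (hg19) were used; for the counter, its strand setting and the annotation, nothing is stated in the sources used here. The deposited table holds raw counts per Ensembl gene, 14829597 to 71622456 per library. Symbols came from a gene name table. edgeR 4.0.16 (R 4.3.3; TMM, filterByExpr, robust quasi-likelihood, group plus code series) was fitted to all 18 libraries and tested on simulated data. DESeq2 1.42.0, limma-voom 3.58.1, other scalings and filters, each code series and left-out libraries were alternatives. Transcript lengths came from GENCODE annotation on GRCh38. The paralog ratio used a pseudocount of 0.5 counts.

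The subunits, lists and ratio were chosen with earlier results of these data known. From each list, called genes (at most 4) or otherwise the 2 with the smallest adjusted p are named, and the 6 genes most like ATP6V0D2. SIGLEC15 and ACP5 were named after their values were seen. Same-numbered libraries deviated together over genes in siRagC2 and siCtrl (r 0.116 to 0.492) and in the siRNAs (0.221 to 0.582), which the code series enters; with code series means removed, not every pair passed 0.1 (-0.0382 to 0.204 and 0.0439 to 0.263). The labels give no reason for pairing. Replicates of a group differed by more than sampling noise (chi-square per degree of freedom 2.88 to 81.6).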

Additional observations from a re-analysis of the deposited data

Results flagged for a closer look

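Single libraries far from the other 5 of their group were looked for with Dixon's test in 36 groups, of which 3 stood out; chance gives about 1 in 20. ATP6V0A1 was at 65.9 CPM in replicate 6 of siCtrl, where the others had 56.0 to 58.8. ATP6AP1 was at 155 CPM in replicate 1 of siRagC2, against 131 to 137 in the others. RRAGC was at 67.9 CPM in replicate 1 of siCtrl, against 60.6 to 62.2.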

How the results depend on the processing

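Of 2313 values recomputed under alternatives, 2160 kept their side of the threshold or their count, among them 85 uncalled values that changed sign. A call was lost by 88 and gained by 30, 35 counts moved and 0 called values changed sign. Most of the values were uncalled in the main fit and had no call to lose. The number kept is thus no measure of how stable the calls were. The number of subunits called higher with siRagC1, 1, became 2 with DESeq2 or the replicate block (ATP6V0E1 in addition), 0 without the code series term or in D1221 alone, and 1 to 2 on leaving out single libraries or numbers; it was also 1 under a filter of 5 CPM in 6 libraries, but there ATP6V0D2 was dropped and the call was ATP6V0E1 (0.16, edgeR, adjusted p = 0.0459). The number higher with siRagC2, 1, became 0 under the same filter, without the code series term, and in D1221 alone. The number lower with siRagC2, 1 (ATP6V0A2), became 0 without a filter, without the code series term, with only the compared groups, in D1103 or D1221 alone, at an adjusted p of 0.01 and at a minimum fold of 1.2, and was 0 to 1 on leaving out libraries. Between the siRNAs, 0 subunits became 1 (ATP6V0D2) without a filter (0.50, edgeR, adjusted p = 0.00113), in D1103 alone, and in 0 to 1 on leaving out libraries; the log2 paralog ratio ran from 0.34 to 0.49 there, 0.49 being the only value to pass, and was 0.17 in D1221 alone (exact permutation p = 0.514). Over all genes, edgeR called 312 and 495 with siRagC1 and siRagC2, DESeq2 772 and 995. In siRagC1 and siCtrl the r of same-numbered libraries ran from 0.0765 to 0.610, and from -0.0745 to 0.299 with code series means removed. Not every pair passed 0.1, and these values do not settle whether the numbers pair the libraries. With the replicate block, adjusted p for the paralog ratio was 0.0469, 0.0469 and 0.125 by exact sign flips. No other subunit changed its call there, while ATP6V1F and CLCN7 passed with siRagC1. The cause of these changes was not tested, save where fewer libraries or genes entered. The counts of ATP6V0C, 3 to 40 per library, went with the widest standard errors among the subunits.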
